A study of Mus musculus with 12 samples.

Results

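The 10 genes described here encode the core of the T cell receptor machinery: the signalling chains Cd3d, Cd3e, Cd3g and Cd247, the kinases Zap70 and Fyn, the adaptors Lat and Lcp2, the selection regulator Themis and the phosphatase Ptprc. They were chosen by name, with earlier results of these data already known. Every probe set whose only gene symbol in the platform annotation was one of these names was kept, which gave 21 of the 34945 probe sets with 1 symbol, and 10 of 18193 genes. Cd247 and Themis had 4 probe sets each, Zap70 had 3, Lcp2, Fyn and Ptprc had 2, and Cd3d, Cd3e, Cd3g and Lat had 1. All 10 symbols matched a RefSeq gene by gene ID. A probe set is a group of short probes for a transcript on an Affymetrix array. The ending _a_at marks one that recognises several transcripts of a gene, and _x_at marks one with probes that may also bind other transcripts.

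Expression had been measured in 4 sorted subsets of thymocytes from C57BL/6 mice, with 3 arrays per subset. The DN cells were negative for CD4, CD8a and surface TCRb, and the DP cells were positive for CD4 and CD8a. The CD4SP cells were CD4-positive, CD8a-negative and high for TCRb, and the CD8SP cells were CD4-negative, CD8a-positive and high for TCRb. All 4 subsets came from untreated cells that had not been cultured. The gates named no other lineage marker, and the labels used here give no age, no sex and no pooling of mice, nor whether each replicate was a separate mouse. P-values therefore measure only the spread between these arrays, which may be technical.

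The T cell receptor has no signalling domain of its own and works through the CD3 chains and the ζ chain encoded by Cd247. When the receptor is engaged, Src-family kinases such as Lck and Fyn phosphorylate the tails of these chains, Zap70 binds to them, and Zap70 then phosphorylates Lat and Lcp2 (SLP-76), which assemble the downstream complex. Ptprc (CD45) keeps the Src-family kinases in an activatable state by removing an inhibitory phosphate, and Themis binds the Lat complex and is needed for thymocytes to pass positive selection. In the thymus a pre-receptor built with Ptcra is tested at the DN stage, and the complete αβ receptor is tested at the DP stage before cells become CD4SP or CD8SP.

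Each deposited value is a log value, read here as log2, from which the DP mean has been taken away. DP therefore lies at 0 for each probe set, the level of a gene cannot be compared with that of another gene, and a difference between 2 subsets keeps its meaning. Differences are given in log2 units ± the standard error of a limma fit to all 12 arrays, and a probe set is called, and said to have risen or fallen, at an adjusted p under 0.05. The adjustment (Benjamini-Hochberg) ran over all 34945 probe sets within each comparison. In bulk samples, fewer cells of a type and less RNA per cell cannot be told apart.

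The subset labels were checked with the sort genes. Cd4, the mean of its probe sets, lay between -6.49 and -3.88 on the DN arrays, between -0.76 and -0.52 on the CD4SP arrays and between -9.20 and -8.39 on the CD8SP arrays. Cd8a lay between -4.59 and -2.63 in DN, between -6.84 and -6.35 in CD4SP and between -0.43 and -0.20 in CD8SP. CD8SP 1 and DN 1 had the lowest array weights (0.28 and 0.57, against 0.70 to 1.77 for the other arrays). These weights were estimated separately and were not used in the main fit. DN 1 was also the DN array with the highest Cd4 and Cd8a. The counts of member and pathway genes below are therefore also given without both arrays. The DN arrays also carried markers of other cells, since the mean of 12 myeloid and dendritic markers was 2.16 to 3.44 there against -0.24 to 0.22 in DP. The part of these cells in the results below was not tested. Absolute levels were lost, so it cannot be said which of their defining markers were at 0 in any subset.

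Cd3g, Cd3d and Cd3e lie next to each other on chromosome 9, and from DN to DP Cd3d and Cd3e rose while Cd3g was not called. Their upstream sequences are therefore shown first, followed by those of Themis and Fyn, which moved in opposite directions in single-positive cells. Each is the 250 bases before the RefSeq start site (GRCm38.p6), written 5′ to 3′ on the strand of the gene, with each E-box (CANNTG, the letters that E proteins bind, a pattern that reads the same on both strands) in capitals. The windows are chr9:44980432-44980681 on the minus strand for Cd3g, chr9:44981536-44981785 on the plus strand for Cd3d and chr9:45009612-45009861 on the minus strand for Cd3e. Those of Themis and Fyn are chr10:28668110-28668359 and chr10:39369549-39369798, both on the plus strand.
Cd3g: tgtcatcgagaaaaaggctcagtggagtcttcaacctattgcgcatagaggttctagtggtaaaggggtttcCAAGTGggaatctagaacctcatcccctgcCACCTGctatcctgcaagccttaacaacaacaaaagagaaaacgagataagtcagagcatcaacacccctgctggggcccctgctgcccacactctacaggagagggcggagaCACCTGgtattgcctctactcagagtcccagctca
Cd3d: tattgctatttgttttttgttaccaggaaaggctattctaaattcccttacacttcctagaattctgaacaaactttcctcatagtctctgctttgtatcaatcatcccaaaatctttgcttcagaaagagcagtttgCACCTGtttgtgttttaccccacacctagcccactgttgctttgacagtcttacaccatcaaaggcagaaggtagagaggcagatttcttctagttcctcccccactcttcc
Cd3e: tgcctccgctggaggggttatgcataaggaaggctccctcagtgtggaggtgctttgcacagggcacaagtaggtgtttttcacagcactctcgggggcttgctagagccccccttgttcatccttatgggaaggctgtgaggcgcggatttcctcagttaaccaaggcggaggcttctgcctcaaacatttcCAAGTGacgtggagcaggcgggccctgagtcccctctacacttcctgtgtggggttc
Themis: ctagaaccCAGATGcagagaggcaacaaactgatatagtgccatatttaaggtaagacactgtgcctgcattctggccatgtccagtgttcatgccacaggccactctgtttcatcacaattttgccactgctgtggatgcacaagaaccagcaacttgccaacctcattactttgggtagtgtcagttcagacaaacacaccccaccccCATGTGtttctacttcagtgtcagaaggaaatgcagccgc
Fyn: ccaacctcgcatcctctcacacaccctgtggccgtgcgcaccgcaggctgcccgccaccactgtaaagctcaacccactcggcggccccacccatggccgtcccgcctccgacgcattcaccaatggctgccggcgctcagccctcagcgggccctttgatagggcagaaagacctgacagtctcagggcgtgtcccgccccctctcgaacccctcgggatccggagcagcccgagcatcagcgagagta

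The starts of Cd3g and Cd3d are 1355 bases apart on opposite strands, and those of Cd3d and Cd3e are 27825 bases apart. The Cd3g window held 3 E-boxes, the Cd3d and Cd3e windows 1 each, the printed Themis window 2 and the Fyn window 0. Over all 10 genes, 12 of 14 RefSeq windows of 250 bases held an E-box, in 9 of 10 genes, against 66.2% of 32851 such windows of all genes. The ETS core GGAAG, also read as CTTCC for the other strand, can share its first or last letter with an E-box and was counted separately. It was present in 9 of 14 windows, in 7 of 10 genes, against 64.1% of all windows. The Cd3d window held 2 ETS cores, the Cd3e window 3, and the Cd3g, Themis and Fyn windows 0. A match describes letters and is no binding site.

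The first comparison, DP against DN, covers the passage from cells without a surface αβ receptor to cells that are tested for one. The receptor core was higher in DP: 9 of the 10 genes had at least 1 probe set that rose, none had a probe set that fell, and Cd3g was the gene with no call. By the mean over the probe sets of each gene, adjusted over all genes, the same 9 rose. By that measure 17.8% of all genes rose and 18.8% fell. The largest rises were those of Themis, by 1.61 to 2.23 over its 4 probe sets, and of Ptprc 1440165_at, which at 1.64 lay above the lowest of them. Of the 21 probe sets 18 rose and 0 fell, where 18.9% of all probe sets rose, 17.8% fell and 36.7% were called in either direction. The median difference of the 21 was 0.87, against 0.060 over all probe sets. The DN and DP arrays did not overlap for 18 of 21 (50.4% of all probe sets), and without DN 1 and CD8SP 1 the counts were 17 higher and 0 lower.

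The CD3 chains δ, ε and γ form the dimers that flank the receptor. Cd3d 1422828_at read -0.87, -0.80 and -0.67 on the DN arrays and -0.099, 0.098 and 0.00079 on the DP arrays, and Cd3e 1422105_at read -0.78, -0.73 and -0.66 on the DN arrays and -0.16, -0.0036 and 0.17 on the DP arrays. Both were lower on each DN array than on any DP array, and they rose by 0.78 ± 0.10 (adjusted p = 0.00017) and 0.73 ± 0.10 (adjusted p = 0.000228). Cd3g 1419178_at read -0.36, 0.082 and 0.10 on the DN arrays and -0.19, 0.14 and 0.041 on the DP arrays. Its groups overlapped, and its difference of 0.057 ± 0.15 was not called (adjusted p = 0.807, 95% interval -0.28 to 0.39). The interval of Cd3g does not reach the estimates of Cd3d and Cd3e, and the difference between these genes was not tested.

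Cd247 encodes the ζ chain, which carries most of the motifs that Zap70 binds. Its probe set 1452539_a_at read -1.56, -1.28 and -1.25 on the DN arrays and 0.054, 0.0067 and -0.060 on the DP arrays and rose by 1.36 ± 0.13, a 2.57-fold difference (adjusted p = 1.5e-05). For 1426396_at the readings were -1.32, -1.28 and -1.14 on the DN arrays and -0.066, -0.021 and 0.086 on the DP arrays, a rise of 1.25 ± 0.093 (adjusted p = 2.84e-06). The third probe set, 1426079_at, read -0.72, -0.47 and -0.66 on the DN arrays and 0.0012, -0.035 and 0.034 on the DP arrays and rose by 0.62 ± 0.13 (adjusted p = 0.00362). All 3 were lower on every DN array than on any DP array. The remaining probe set, 1420716_at, spread more widely: it gave -1.67, -0.26 and -0.67 on the DN arrays and -0.78, 0.30 and 0.48 on the DP arrays, its within-group SD of 0.69 was above that of 96.5% of all probe sets, the array numbered 1 was the lowest in each of the 4 subsets, and its difference of 0.87 ± 0.49 was not called (adjusted p = 0.202).

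Of the kinases, Zap70, which docks on the phosphorylated chains, rose on all 3 of its probe sets. Zap70 1422701_at read -0.67, -0.75 and -0.86 on the DN arrays and -0.14, 0.12 and 0.018 on the DP arrays and rose by 0.76 ± 0.12 (adjusted p = 0.000414). The rise on 1440178_x_at was 0.76 ± 0.11 (adjusted p = 0.00034), from -0.64, -0.82 and -0.80 on the DN arrays. Zap70 1439749_at read -0.38, -0.37 and -0.15 on the DN arrays and -0.0052, -0.0070 and 0.012 on the DP arrays, a rise of 0.30 ± 0.11 that was close to the threshold (adjusted p = 0.0489). That call was lost without DN 1, DN 2, DP 1, DP 2, DP 3, CD4SP 1, CD4SP 2, CD4SP 3 or CD8SP 3 in turn (0.26 to 0.30, adjusted p between 0.0553 and 0.141). Fyn, a Src-family kinase, read -0.62, -0.35 and -0.48 on the DN arrays and -0.25, 0.089 and 0.16 on the DP arrays on 1417558_at and rose by 0.48 ± 0.12 (adjusted p = 0.0102). Its other probe set, 1448765_at, read -0.67, -0.30 and -0.14 on the DN arrays and -0.27, 0.11 and 0.15 on the DP arrays, with overlapping groups and a difference of 0.37 ± 0.17 that was not called (adjusted p = 0.115). The 2 Fyn probe sets thus gave different calls on estimates whose 95% intervals overlap (0.21 to 0.75 and -0.0040 to 0.74).

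The adaptors rose. Lat, the membrane scaffold that Zap70 phosphorylates, read -0.995, -0.92 and -0.90 on the DN arrays and -0.056, 0.0088 and 0.047 on the DP arrays on 1460651_at and rose by 0.94 ± 0.10 (adjusted p = 4.8e-05). Lcp2, the cytosolic adaptor SLP-76 that joins Lat, read -1.44, -1.15 and -1.25 on the DN arrays and -0.29, 0.12 and 0.18 on the DP arrays on 1418641_at, a rise of 1.28 ± 0.13 (adjusted p = 2.3e-05). On 1418642_at it read -0.88, -0.43 and -0.39 on the DN arrays and -0.046, 0.11 and -0.061 on the DP arrays, a rise of 0.57 ± 0.14 (adjusted p = 0.0097). In each of these 3 probe sets the DN arrays lay below the DP arrays. The estimates of the 2 Lcp2 probe sets differed by more than their standard errors, so the size of the Lcp2 rise depended on the probe set and its direction did not.

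Themis read -1.65, -1.82 and -1.71 on the DN arrays at 1436423_at and rose by 1.73 ± 0.089, a 3.31-fold difference (adjusted p = 2.74e-07). The DN readings were -1.46, -1.67 and -1.68 at 1439719_at, -1.79, -2.06 and -2.01 at 1442022_at and -1.94, -2.26 and -2.49 at 1443192_at, and the rises there were 1.61 ± 0.12, 1.95 ± 0.13 and 2.23 ± 0.15 (adjusted p = 3.76e-06, 1.52e-06 and 1.33e-06). No DN array came within 1 log2 unit of the DP mean on any of the 4. Ptprc, the transmembrane phosphatase, read -1.07, -0.92 and -0.77 on the DN arrays and -0.14, 0.013 and 0.13 on the DP arrays on 1422124_a_at and rose by 0.92 ± 0.10 (adjusted p = 5.18e-05). Its probe set 1440165_at read -1.24, -1.96 and -1.73 on the DN arrays and -0.12, -0.064 and 0.18 on the DP arrays and rose by 1.64 ± 0.18 (adjusted p = 4.36e-05). On both, all DN arrays lay below all DP arrays.

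Markers of other cell types moved with this comparison, in the opposite direction to most of the core. The 7 measured markers of NK and innate lymphoid cells all fell, and their mean was 1.09 to 2.54 on the DN arrays against -0.11 to 0.10 on the DP arrays. Of 12 myeloid and dendritic markers 6 fell, led by Camp (-8.60 ± 0.57) and S100a9 (-7.61 ± 0.67), which encode proteins found in neutrophils. Of 7 B cell markers 3 fell, with a list mean of 0.55 to 2.17 in DN against -0.087 to 0.071 in DP. All 3 measured γδ T markers fell, with a list mean of 3.05 to 3.67 in DN, and γδ T cells themselves carry the CD3 complex. Of 8 thymic stroma markers 2 fell, of 5 regulatory T markers 1 rose and 2 fell, of 3 erythroid markers 1 rose, and of 8 heat shock and dissociation genes 1 rose. The part of these cells in the rise of the receptor core was not tested.

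**Figure D1:**
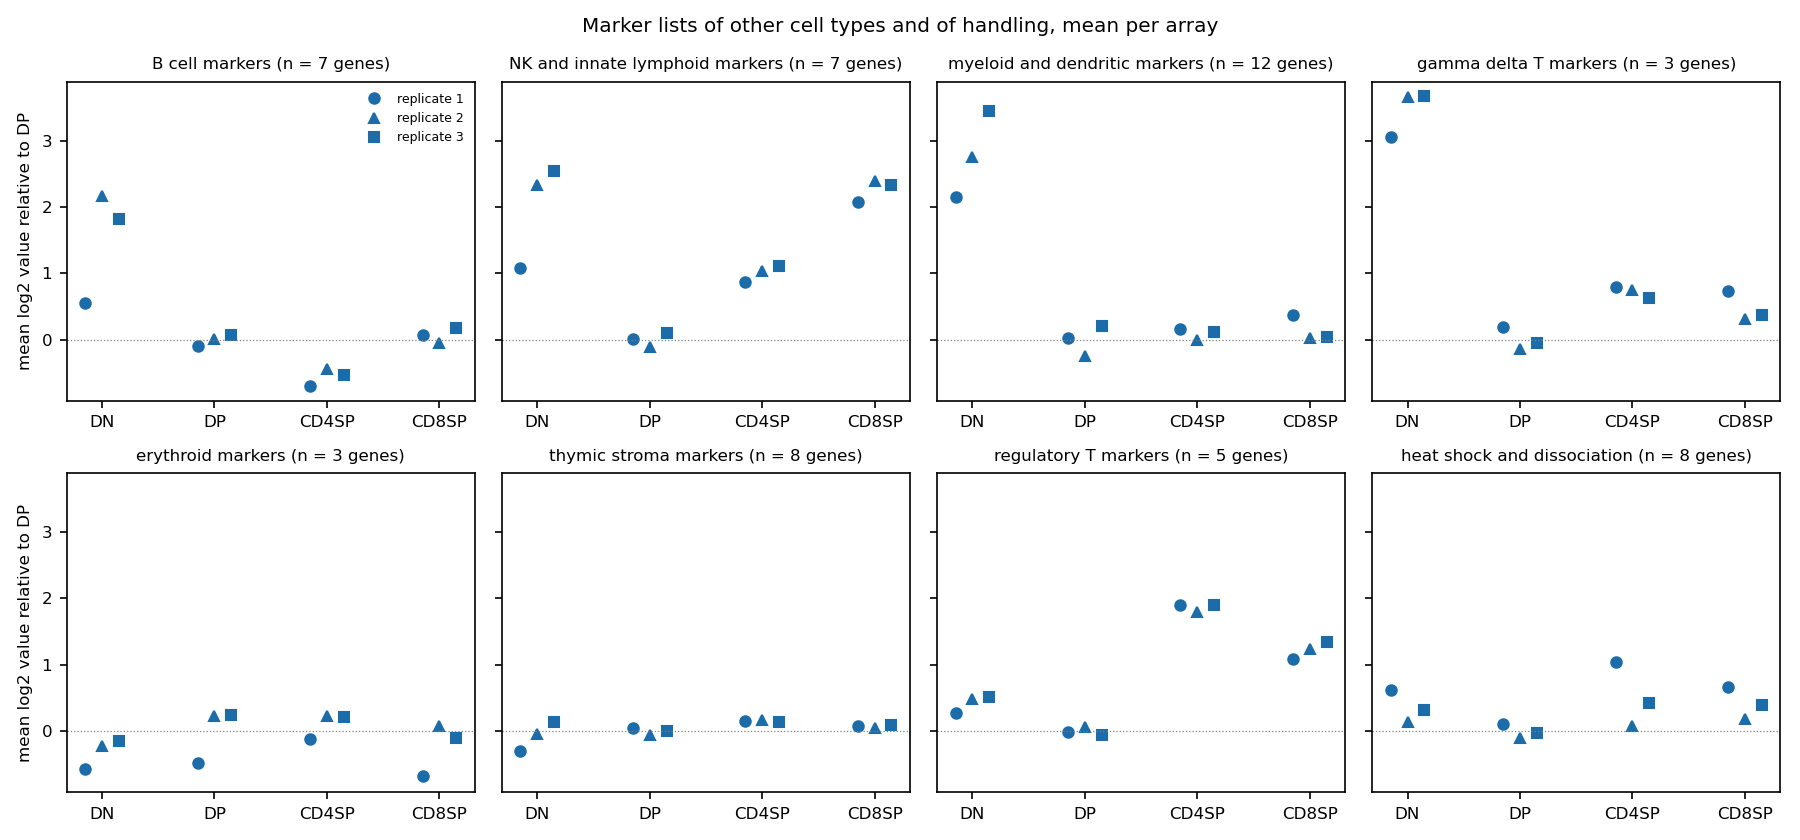
Mean log2 value relative to DP of each marker list (vertical axis) on the 12 arrays by subset (horizontal axis), with 1 symbol per replicate number and the number of genes in each panel title. The DN arrays lie at 2.16 to 3.44 for the myeloid and dendritic list and at 3.05 to 3.67 for the γδ T list, above all DP arrays.

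**Figure D2:**
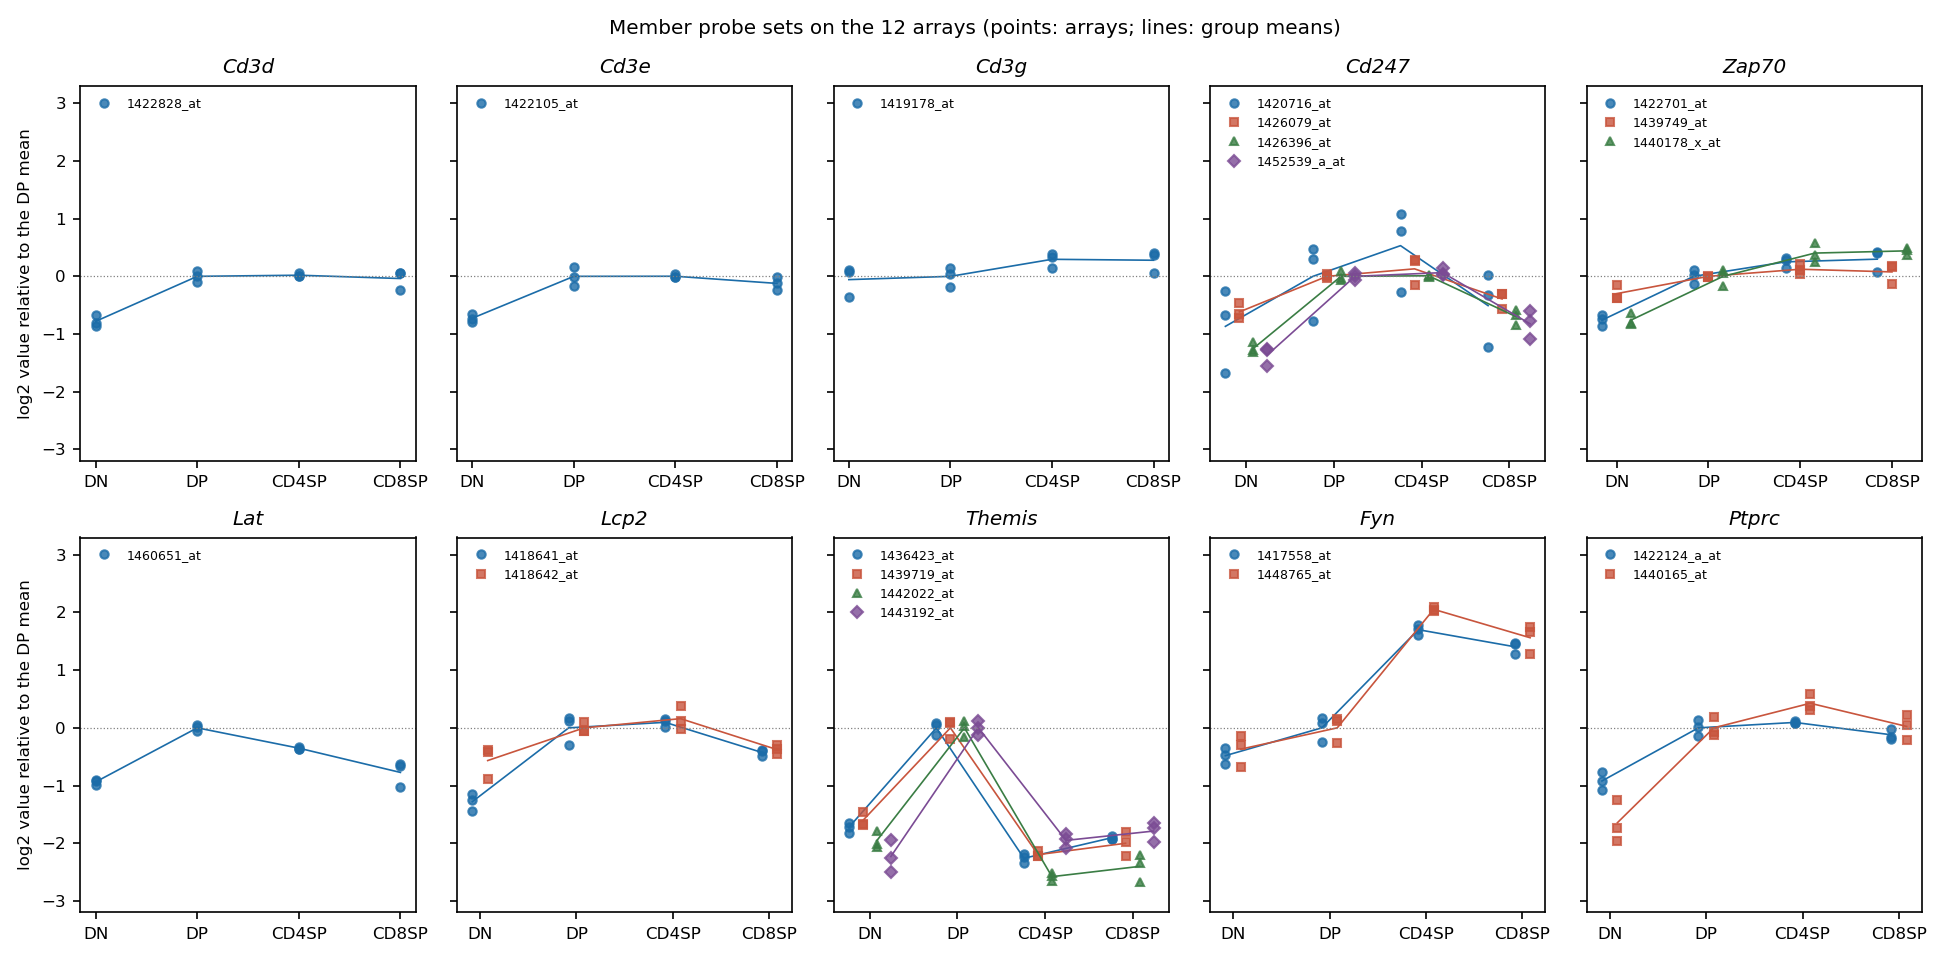
Log2 value relative to the DP mean (vertical axis) of the 21 probe sets on the 12 arrays, by subset (horizontal axis), with 1 panel per gene, 1 colour and symbol per probe set, points for arrays and lines for group means. Themis has its highest values in DP on all 4 probe sets, Fyn has its highest in CD4SP on both, and the DN mean is the lowest of the 4 for 18 of the 21 probe sets.

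The next comparison, CD4SP against DP, follows cells that were selected into the CD4 lineage. Themis fell by 1.95 to 2.58 on its 4 probe sets and Fyn rose by 1.70 and 2.05 on its 2. Smaller changes were called in Zap70 and Lat, and the CD3 chains, Cd247, Lcp2 and Ptprc had no call. Of the 21 probe sets 3 rose and 5 fell, where 14.7% of all probe sets rose and 16.8% fell (31.4% in either direction), so the share called was near that of the whole array. The median difference of the 21 was 0.096, against 0.011 over all probe sets, 12 of 21 did not overlap (48.2% of all), and the counts without DN 1 and CD8SP 1 were 4 higher and 5 lower.

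Themis read -2.57, -2.65 and -2.52 on the CD4SP arrays at 1442022_at and fell by 2.58 ± 0.13, a 5.98-fold difference (adjusted p = 1.67e-07). The CD4SP readings were -2.24, -2.35 and -2.196 at 1436423_at, -2.22, -2.14 and -2.23 at 1439719_at and -1.84, -1.94 and -2.08 at 1443192_at. There the differences were -2.26 ± 0.089, -2.198 ± 0.12 and -1.95 ± 0.15 (adjusted p = 3.21e-08, 3.17e-07 and 2.7e-06). On each of the 4, all CD4SP arrays lay below all DP arrays. Fyn read 1.62, 1.71 and 1.78 at 1417558_at, a rise of 1.70 ± 0.12 or 3.25-fold (adjusted p = 1.95e-06), and 2.04, 2.03 and 2.10 at 1448765_at, a rise of 2.05 ± 0.17 or 4.16-fold (adjusted p = 4.94e-06). All CD4SP arrays lay above all DP arrays on both.

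Zap70 rose on 1440178_x_at, which read -0.17, 0.061 and 0.11 in DP and 0.58, 0.25 and 0.38 in CD4SP, by 0.40 ± 0.11 (adjusted p = 0.0179). The call was lost without DP 1 or CD4SP 1 in turn (0.31 to 0.32, adjusted p between 0.0709 and 0.0711). Its other probe sets read 0.28, 0.15 and 0.32 (1422701_at) and 0.11, 0.044 and 0.22 (1439749_at) in CD4SP and differed by 0.25 ± 0.12 (adjusted p = 0.132) and 0.12 ± 0.11 (adjusted p = 0.437). By single probe sets, the Zap70 call thus came only from the one whose probes may bind other transcripts. On each Zap70 probe set all CD4SP arrays lay above all DP arrays. The mean over the Zap70 probe sets was called higher (0.26 ± 0.082, adjusted p = 0.0319 over all genes). Lat read -0.33, -0.37 and -0.36 in CD4SP and fell by 0.35 ± 0.10 (adjusted p = 0.0252). That call was lost without DP 2, DP 3, CD4SP 1, CD4SP 2 or CD4SP 3 in turn (-0.36 to -0.33, adjusted p between 0.0528 and 0.0812).

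The receptor chains were close to their DP level. Cd3d read 0.0090, -0.0022 and 0.051 and Cd3e 0.034, -0.017 and -0.012 on the CD4SP arrays, differences from DP of 0.019 ± 0.10 and 0.0016 ± 0.10 (95% intervals -0.21 to 0.25 and -0.22 to 0.23). Cd3g read 0.15, 0.34 and 0.39, above all DP arrays, and its difference of 0.30 ± 0.15 was not called (adjusted p = 0.177). In a limma fit that also held the replicate number it was called (adjusted p = 0.0229). Cd247 read -0.15, 0.28 and 0.26 at 1426079_at. At 1426396_at it read 0.012, 0.024 and -0.0071, and at 1452539_a_at 0.037, 0.016 and 0.14. In this order the probe sets differed from DP by 0.13 ± 0.13, 0.0096 ± 0.093 and 0.065 ± 0.13. None of these differences was called, and their 95% intervals were -0.16 to 0.42, -0.19 to 0.21 and -0.22 to 0.35. The more variable probe set 1420716_at gave 0.53 ± 0.49 (adjusted p = 0.468).

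Lcp2 read 0.12, 0.0096 and 0.16 at 1418641_at and 0.37, -0.014 and 0.12 at 1418642_at, differences of 0.096 ± 0.13 and 0.16 ± 0.14 that were not called (adjusted p = 0.631 and 0.454). Ptprc read 0.076, 0.12 and 0.082 at 1422124_a_at, a difference of 0.094 ± 0.10 (adjusted p = 0.551). At 1440165_at it read 0.59, 0.38 and 0.31, above all DP arrays, and its difference of 0.43 ± 0.18 was not called (adjusted p = 0.103), whereas it was called without DN 1 (0.43, adjusted p = 0.0423). Of the marker lists, 4 of 5 regulatory T markers rose in CD4SP, led by Gpr83 (4.40 ± 0.17), with a list mean of 1.79 to 1.91 against -0.055 to 0.066 in DP. Of 7 NK and innate lymphoid markers 3 rose, led by Il2rb (3.06 ± 0.36), with a list mean of 0.87 to 1.11. Of 7 B cell markers 1 fell, Cd79b (-4.55 ± 0.44), of 12 myeloid and dendritic markers 1 rose and 1 fell, and of 8 heat shock and dissociation genes 3 rose and 1 fell, with the early response genes Ier2 (2.21 ± 0.16) and Egr1 (1.80 ± 0.19) among those that rose. Of 3 γδ T, 3 erythroid and 8 thymic stroma markers 1 each rose. Their part in the changes of the core was not tested.

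**Figure D3:**
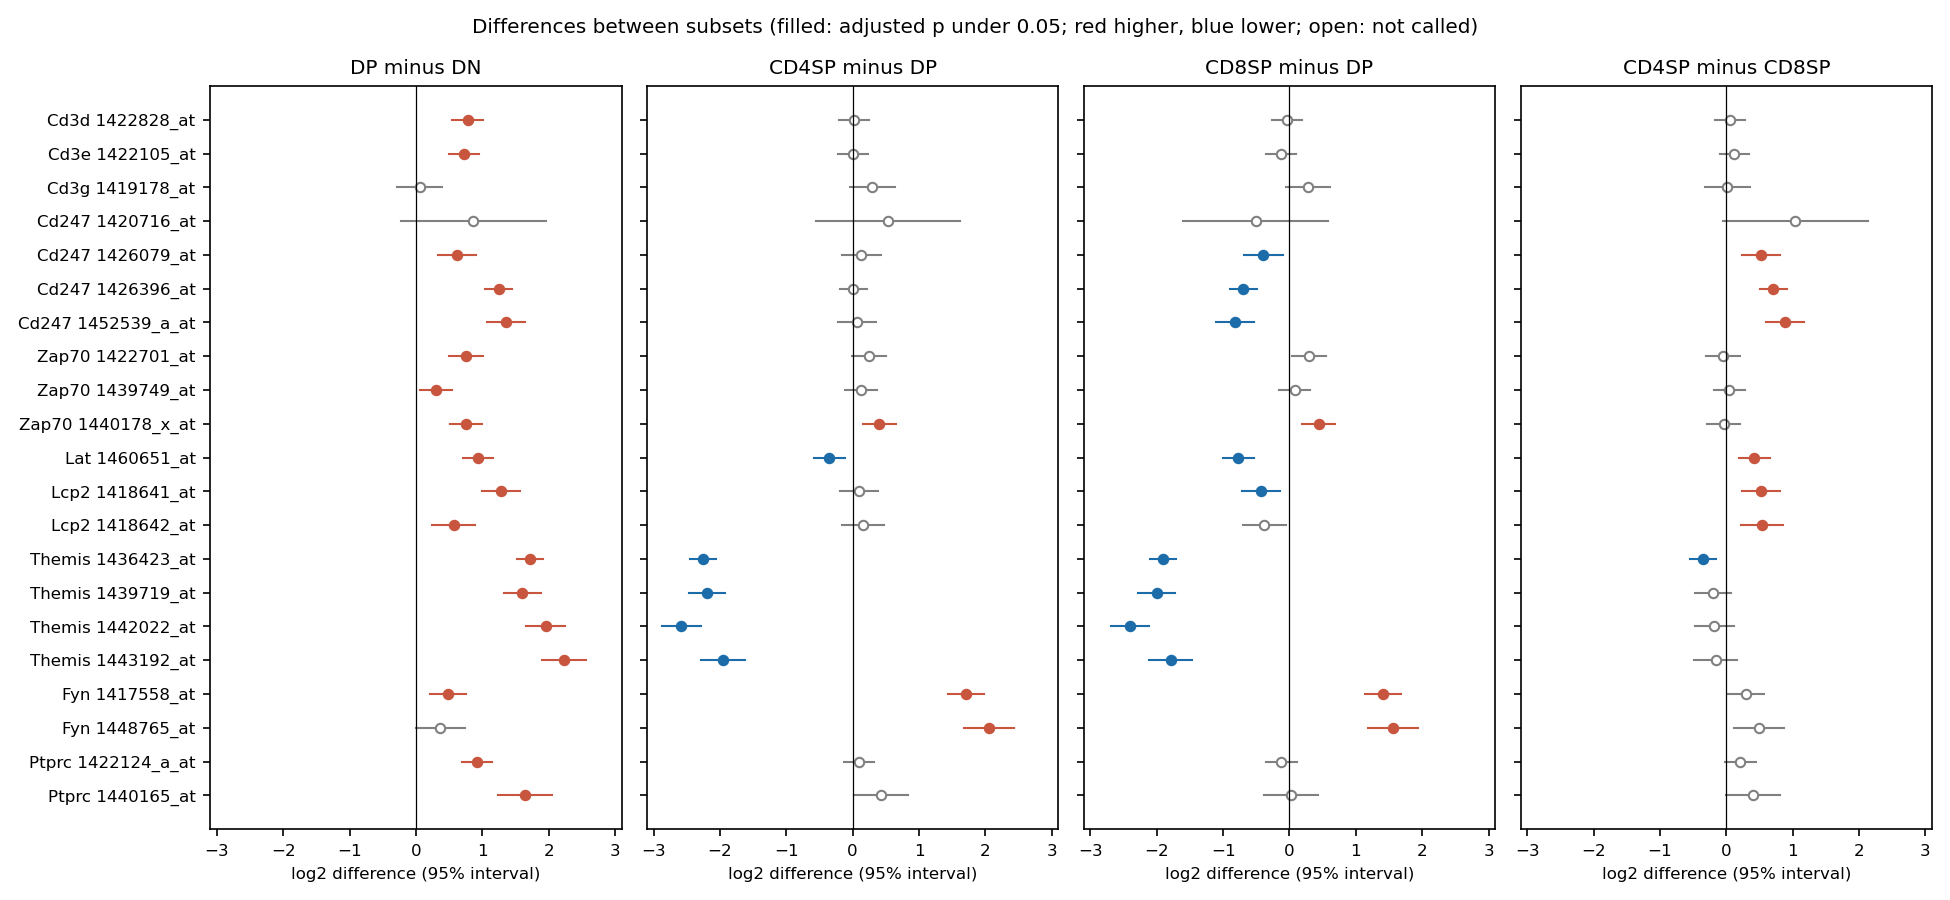
Log2 difference with its 95% interval (horizontal axis) of the 21 probe sets (vertical axis) in 4 comparisons, filled red where called higher, filled blue where called lower and open where not called. The Themis points lie at -2.58 to -1.95 in CD4SP minus DP and at -2.40 to -1.79 in CD8SP minus DP, and the Fyn points lie above 0 in both.

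The comparison of CD8SP with DP uses the same 3 DP arrays as the one before, so that any deviation of these arrays enters both. Themis fell and Fyn rose here too, and the chain Cd247 and the adaptors Lat and Lcp2 fell. Of the 21 probe sets 3 rose and 9 fell, where 16.4% of all probe sets rose and 22.8% fell (39.3% in either direction). The median difference of the 21 was -0.38, against -0.037 over all probe sets, and 13 of 21 did not overlap (49.1% of all). Without DN 1 and CD8SP 1 the counts were 5 higher and 9 lower, the added rises being those of Cd3g and Zap70 1422701_at. Among the falls Lcp2 1418642_at was gained and Lcp2 1418641_at was lost.

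Themis read -2.67, -2.200 and -2.34 on the CD8SP arrays at 1442022_at, where it fell by 2.40 ± 0.13 or 5.29-fold (adjusted p = 2.53e-07). At 1436423_at, 1439719_at and 1443192_at the CD8SP readings were -1.92, -1.88 and -1.92, then -2.22, -1.81 and -1.98, then -1.65, -1.99 and -1.73. The differences there were -1.91 ± 0.089, -2.001 ± 0.12 and -1.79 ± 0.15 (adjusted p = 7.98e-08, 5.61e-07 and 4.58e-06). Every CD8SP array lay below every DP array on all 4 probe sets. Fyn read 1.29, 1.47 and 1.46 at 1417558_at and 1.28, 1.66 and 1.75 at 1448765_at, rises of 1.41 ± 0.12 and 1.56 ± 0.17 (adjusted p = 7.13e-06 and 3.27e-05), with no overlap with DP.

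Cd247 fell on the 3 probe sets that had risen from DN to DP. On 1452539_a_at it read -1.09, -0.78 and -0.60 in CD8SP and fell by 0.82 ± 0.13 (adjusted p = 0.000455). On 1426396_at it read -0.84, -0.67 and -0.58 and fell by 0.70 ± 0.093 (adjusted p = 0.00014). The probe set 1426079_at read -0.31, -0.56 and -0.30 and fell by 0.39 ± 0.13 (adjusted p = 0.0352), a call that was lost without DP 1, DP 2, DP 3 or CD8SP 2 in turn (-0.41 to -0.31, adjusted p between 0.0685 and 0.123). On each of the 3 the CD8SP arrays lay below the DP arrays. The more variable probe set 1420716_at gave -0.51 ± 0.49 and was not called (adjusted p = 0.457).

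Lat read -1.02, -0.67 and -0.63 in CD8SP and fell by 0.77 ± 0.10 (adjusted p = 0.000167). Lcp2 read -0.49, -0.38 and -0.40 at 1418641_at and fell by 0.42 ± 0.13 (adjusted p = 0.023), and this call was lost without DP 2, DP 3 or CD8SP 1 in turn (-0.39 to -0.34, adjusted p between 0.0601 and 0.0938). At 1418642_at Lcp2 read -0.37, -0.46 and -0.30, a difference of -0.38 ± 0.14 that was not called (adjusted p = 0.0595) and was called without DN 1 (-0.38, adjusted p = 0.0218). Zap70 rose on 1440178_x_at, which read 0.37, 0.46 and 0.50, by 0.44 ± 0.11 (adjusted p = 0.00903). Its probe set 1422701_at read 0.077, 0.42 and 0.40, a difference of 0.30 ± 0.12 that was not called (adjusted p = 0.0637), and it was called without CD8SP 1 (0.41, adjusted p = 0.0111). The third Zap70 probe set, 1439749_at, read 0.19, -0.13 and 0.17 and differed by 0.077 ± 0.11 (adjusted p = 0.616). The mean over the Zap70 probe sets was called higher (0.27 ± 0.082, adjusted p = 0.0218 over all genes).

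On the CD8SP arrays Cd3d read -0.24, 0.065 and 0.059. Cd3e read -0.24, -0.0085 and -0.12 there, and Cd3g read 0.057, 0.37 and 0.41. Each of the 3 groups overlapped DP, and the differences of -0.038 ± 0.10, -0.12 ± 0.10 and 0.28 ± 0.15 were not called (adjusted p = 0.809, 0.378 and 0.178). That of Cd3g was called in a limma fit that also held the replicate number (adjusted p = 0.0241). CD8SP 1 was the lowest of the CD8SP arrays for all 3 chains. Ptprc read -0.022, -0.15 and -0.19 at 1422124_a_at and 0.22, -0.20 and 0.056 at 1440165_at, differences of -0.12 ± 0.10 and 0.025 ± 0.18 with no call. Among the markers, 3 of 7 NK and innate lymphoid genes rose, namely Klrd1 (5.90 ± 0.42), Eomes (4.73 ± 0.63) and Il2rb (4.36 ± 0.36). The mean of all 7 was 2.08 to 2.40. The other members of this list had no call, with CD8SP means of 0.55 (Ncr1), 0.33 (Fcer1g), 0.096 (Klrk1) and -0.093 (Tyrobp). Of 5 regulatory T markers 4 rose, with a list mean of 1.09 to 1.34, and the marker with no call was Foxp3 (CD8SP mean 0.16). Of 7 B cell markers 0 were called (unadjusted p under 0.05 in 0), of 12 myeloid and dendritic markers 1 rose and 2 fell, of 3 γδ T and 3 erythroid markers 1 each rose, of 8 thymic stroma markers 1 rose and 1 fell, and of 8 heat shock and dissociation genes 2 rose and 1 fell. The part of any such cells in the changes of the core was not tested.

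CD4SP minus CD8SP is the direct comparison of the single-positive subsets and is also the test of whether their changes from DP differ, since the DP arrays drop out. Cd247, Lat and Lcp2 were higher in CD4SP than in CD8SP, and Themis was lower on 1 of its 4 probe sets. Of the 21 probe sets 6 were higher and 1 was lower, where 8.36% of all probe sets were higher and 4.5% lower (12.9% in either direction). The calls over all probe sets were higher in CD4SP for 65.0% of them, and for 54.3% after each array was centred on its median, which left 6 higher and 1 lower among the 21. The median difference of the 21 was 0.21, against 0.048 over all probe sets. The groups did not overlap for 11 of 21 (30.4% of all), and without DN 1 and CD8SP 1 the counts were 7 higher and 1 lower.

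The values of Cd247 lay between -0.15 and 0.28 on the CD4SP arrays over its 3 steadier probe sets, and between -1.09 and -0.30 on the CD8SP arrays. The difference was 0.89 ± 0.13 on 1452539_a_at or 1.85-fold (adjusted p = 0.00166), 0.71 ± 0.093 on 1426396_at (adjusted p = 0.000906) and 0.52 ± 0.13 on 1426079_at (adjusted p = 0.0253). The last call was lost without CD4SP 2, CD4SP 3 or CD8SP 2 in turn (0.44 to 0.46, adjusted p between 0.088 and 0.0977). The more variable probe set 1420716_at gave 1.04 ± 0.49 and no call (adjusted p = 0.207). Lat differed by 0.42 ± 0.10 (adjusted p = 0.0243), and the call was lost without CD4SP 1, CD4SP 2 or CD4SP 3 in turn (0.41 to 0.43, adjusted p between 0.0639 and 0.0708). Lat thus fell from DP in both subsets, and more so in CD8SP.

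Lcp2 differed by 0.52 ± 0.13 on 1418641_at (adjusted p = 0.024) and by 0.54 ± 0.14 on 1418642_at (adjusted p = 0.0332). The first call was lost without CD4SP 1, CD4SP 3, CD8SP 1, CD8SP 2 or CD8SP 3 in turn (0.49 to 0.54, adjusted p between 0.053 and 0.0854), and the second without CD4SP 1, CD4SP 3, CD8SP 1, CD8SP 2 or CD8SP 3 in turn (0.43 to 0.57, adjusted p between 0.0574 and 0.113). Themis differed by -0.35 ± 0.089 on 1436423_at (adjusted p = 0.0247), a call lost without CD4SP 1, CD4SP 2, CD4SP 3, CD8SP 2 or CD8SP 3 in turn (-0.39 to -0.31, adjusted p between 0.0515 and 0.0902). Its other 3 probe sets gave -0.20 ± 0.12, -0.18 ± 0.13 and -0.16 ± 0.15, with no call (adjusted p = 0.351, 0.44 and 0.54).

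Fyn was higher on every CD4SP array than on any CD8SP array on both probe sets, by 0.30 ± 0.12 and 0.49 ± 0.17, and neither difference was called (adjusted p = 0.151 and 0.0844). The same held for Ptprc, with differences of 0.21 ± 0.10 and 0.40 ± 0.18 (adjusted p = 0.219 and 0.185), but Ptprc 1440165_at was called higher in CD4SP without DN 1 and CD8SP 1 (0.50, adjusted p = 0.047) and is the probe set added to the count above. The differences of Zap70 were -0.047 ± 0.12, 0.047 ± 0.11 and -0.039 ± 0.11, with 95% intervals of -0.30 to 0.21, -0.19 to 0.28 and -0.29 to 0.21. Those of Cd3d, Cd3e and Cd3g were 0.057 ± 0.10, 0.12 ± 0.10 and 0.016 ± 0.15, with 95% intervals of -0.17 to 0.29, -0.10 to 0.35 and -0.32 to 0.35. Among the markers, 3 of 7 NK and innate lymphoid genes were lower in CD4SP and 0 higher, 3 of 5 regulatory T genes were higher and 1 lower, and 1 each of the B cell (Cd79b, -4.22 ± 0.44) and myeloid and dendritic lists was lower. Of 8 thymic stroma markers 1 was higher, and no γδ T, erythroid or heat shock and dissociation gene was called of 3, 3 and 8 (unadjusted p under 0.05 in 3 of these). Their part in the differences of the core was not tested.

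The single-positive subsets were also set against DN directly. Against DN, CD4SP had 16 of the 21 probe sets higher and 3 lower, where 22.1% of all were higher and 21.1% lower (43.2% in either direction). The groups did not overlap for 19 (55.4% of all), and the counts without DN 1 and CD8SP 1 were 16 higher and 3 lower, with Themis 1443192_at gained and Cd247 1420716_at lost among the higher. CD8SP had 13 higher and 2 lower, where 18% were higher and 23.3% lower (41.3% in either direction). Here 15 did not overlap (49.9% of all), and without both arrays the counts were 13 higher and 0 lower, with Lat gained and Zap70 1439749_at lost among the higher. Fyn showed the largest rises, 2.18 ± 0.12 and 2.42 ± 0.17 in CD4SP and 1.89 ± 0.12 and 1.93 ± 0.17 in CD8SP, or 5.37-fold at the most. Ptprc 1440165_at was 2.07 ± 0.18 higher in CD4SP and 1.67 ± 0.18 higher in CD8SP, and Zap70 1440178_x_at 1.16 ± 0.11 and 1.20 ± 0.11 higher. Ptprc 1422124_a_at was 1.01 ± 0.10 and 0.80 ± 0.10 higher, and Zap70 1422701_at 1.01 ± 0.12 and 1.06 ± 0.12 higher. The rise of Zap70 1439749_at in CD4SP was 0.42 ± 0.11 (adjusted p = 0.00824).

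Cd3d was 0.80 ± 0.10 higher in CD4SP than in DN and 0.74 ± 0.10 higher in CD8SP, and Cd3e 0.73 ± 0.10 and 0.60 ± 0.10 higher. Cd3g differed from DN by 0.35 ± 0.15 and 0.34 ± 0.15, and neither was called (adjusted p = 0.0858 and 0.103), the latter being called without CD8SP 1 (0.45, adjusted p = 0.0492). Both were called in a limma fit that also held the replicate number (adjusted p = 0.00753 and 0.0103). Lcp2 1418641_at was 1.38 ± 0.13 and 0.86 ± 0.13 higher. On 1418642_at Lcp2 was 0.73 ± 0.14 higher in CD4SP (adjusted p = 0.00186). In CD8SP that probe set overlapped DN, and its difference of 0.19 ± 0.14 was not called (adjusted p = 0.32). Lat was 0.59 ± 0.10 higher in CD4SP (adjusted p = 0.000974), whereas in CD8SP its difference from DN of 0.16 ± 0.10 was not called (adjusted p = 0.238) and was called without CD8SP 1 (0.29, adjusted p = 0.0146). Cd247 was higher in CD4SP than in DN on 1426079_at (0.75 ± 0.13), 1426396_at (1.26 ± 0.093) and 1452539_a_at (1.43 ± 0.13). In CD8SP it was higher on 1426396_at (0.55 ± 0.093) and 1452539_a_at (0.54 ± 0.13). There 1426079_at gave 0.22 ± 0.13 and no call (adjusted p = 0.199). The more variable Cd247 probe set 1420716_at was 1.40 ± 0.49 higher in CD4SP (adjusted p = 0.0402), a call lost without DN 1, DN 3, CD4SP 2, CD4SP 3 or CD8SP 2 in turn (0.997 to 1.50, adjusted p between 0.0512 and 0.145). In CD8SP that probe set gave 0.36 ± 0.49 and no call (adjusted p = 0.592). Zap70 1439749_at was 0.38 ± 0.11 higher in CD8SP than in DN (adjusted p = 0.0163), a call lost without DN 1, DN 2 or CD8SP 3 in turn (0.33 to 0.34, adjusted p between 0.0548 and 0.0576).

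Themis split by probe set. On 1436423_at, 1439719_at and 1442022_at the CD4SP arrays were below DN, with differences of -0.54 ± 0.089, -0.59 ± 0.12 and -0.63 ± 0.13 (adjusted p = 0.000574, 0.00269 and 0.00285). On 1443192_at CD4SP was 0.28 ± 0.15 above DN, with no call (adjusted p = 0.153), but it was called without DN 1 (0.43, adjusted p = 0.0326). In CD8SP, 1436423_at differed from DN by -0.18 ± 0.089, with no call (adjusted p = 0.128). There 1439719_at and 1442022_at were lower than DN, with differences of -0.40 ± 0.12 (adjusted p = 0.0257) and -0.45 ± 0.13 (adjusted p = 0.0195). On 1443192_at CD8SP was higher than DN, by 0.44 ± 0.15 (adjusted p = 0.034). These 3 calls were lost, in the same order, without DN 1, CD8SP 1 or CD8SP 3 in turn (-0.41 to -0.29, adjusted p between 0.0502 and 0.0898), without DN 1 or CD8SP 1 in turn (-0.37 to -0.32, adjusted p between 0.06 and 0.0716) and without DN 2, DN 3, CD8SP 1 or CD8SP 3 in turn (0.31 to 0.43, adjusted p between 0.085 and 0.125). The probe sets of Themis thus gave the same peak in DP and did not place DN and the single-positive subsets in 1 order.

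Ordered by group mean, DN was the lowest subset for 18 of the 21 probe sets, the exceptions being the 3 Themis probe sets on which CD4SP was the lowest. CD4SP was the highest for 14, DP for 5 and CD8SP for 2. DP was highest for the 4 Themis probe sets and for Lat, and CD8SP for Zap70 1422701_at and 1440178_x_at. Neighbours in the order often had no call between them. For Cd3d, Cd3e and both Ptprc probe sets the 3 subsets other than DN lay in the order CD4SP, DP and CD8SP or CD4SP, CD8SP and DP with no call between neighbours, and for Cd3g no neighbouring pair was called. For Cd247 1426396_at and 1452539_a_at the order was CD4SP, DP, CD8SP and DN, with calls between DP and CD8SP and between CD8SP and DN. For Fyn CD4SP and CD8SP had no call between them, and both lay above DP.

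The 44 other measured genes of the pathway were tested as the mean over the probe sets of each gene, with adjustment over all 18193 genes. From DN to DP 21 rose and 6 fell, where 17.8% of all genes rose and 18.8% fell (36.6% in either direction). In CD4SP against DP 16 rose and 13 fell (16.4% and 16.2% of all genes, 32.7% in either direction), and in CD8SP against DP 13 rose and 17 fell (18.2% and 20.9%, 39% in either direction). Between the single-positive subsets 9 were higher in CD4SP and 4 lower (7.78% and 4.91%, 12.7% in either direction). Without DN 1 and CD8SP 1 the counts, in the same order, were 20 higher and 8 lower, 17 higher and 14 lower, 15 higher and 15 lower and 8 higher and 6 lower. Other genes of the pathway were not analysed here.

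Of the 2 measured receptor chains 1 fell from DN to DP and both fell in each single-positive subset. Ptcra, the surrogate α chain of the pre-receptor, read 1.08, 1.21 and 1.37 on the DN arrays, -3.37, -3.79 and -3.21 on the CD4SP arrays and -3.12, -3.07 and -3.23 on the CD8SP arrays. It fell by 1.22 ± 0.14 from DN to DP and differed from DP by a further -3.46 ± 0.14 in CD4SP and -3.14 ± 0.14 in CD8SP, or 11-fold and 8.8-fold (adjusted p = 3.33e-08 and 5.15e-08). Ptcra was thus the only one of the 2 measured chains that was called from DN to DP, and it fell there while Cd3d and Cd3e rose and Cd3g had no call. Tcra, the α chain locus, was not called from DN to DP (0.052 ± 0.14, adjusted p = 0.806) and fell by 0.59 ± 0.14 in CD4SP and 0.58 ± 0.14 in CD8SP.

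Among the 4 kinases, 2 rose from DN to DP, 2 rose and 2 fell in CD4SP, and 1 rose and 2 fell in CD8SP. Their median differences were 0.30, -0.79 and -0.69, against 0.039, 0.036 and 0.0018 over all genes. The Tec-family kinase Txk read -2.97, -2.81 and -2.58 on the DN arrays and rose by 2.78 ± 0.19 in DP. Its relative Tec rose by 0.86 ± 0.17 and then fell by 2.71 ± 0.17 in CD4SP and 1.54 ± 0.17 in CD8SP, and it was lower in CD4SP than in CD8SP (-1.16 ± 0.17, adjusted p = 0.0016). Syk, the relative of Zap70, fell by 2.16 ± 0.18 and 2.17 ± 0.18 in the same subsets, where Zap70 had no fall on any probe set. Csk, which places the inhibitory phosphate on Fyn and Lck that Ptprc removes, rose by 1.04 ± 0.097 and 0.72 ± 0.097, in the same comparisons as Fyn.

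Of 21 adaptors and effectors 11 rose and 1 fell from DN to DP, 6 rose and 4 fell in CD4SP, and 4 rose and 8 fell in CD8SP, with medians of 0.53, -0.11 and -0.14. From DN to DP the transmembrane adaptor Sit1 (2.23 ± 0.14), the Grb2 relative Grap (1.42 ± 0.14) and Pstpip1 (1.21 ± 0.12) rose the most, and the exchange factor Vav3 fell (-0.96 ± 0.19). Nck2, an adaptor to the actin machinery, fell by 2.63 ± 0.22 in CD4SP and 3.05 ± 0.22 in CD8SP, or 8.27-fold in the latter. Trat1, which binds the receptor complex, read -0.95, -0.999 and -1.001 in CD4SP and -2.25, -2.19 and -2.16 in CD8SP, differences from DP of -0.98 ± 0.097 and -2.197 ± 0.097. Its difference between these subsets was 1.21 ± 0.097 (adjusted p = 3.85e-05), in the direction of Cd247, Lat and Lcp2.

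Sh3bp2 (1.46 ± 0.17) and Vav3 (1.42 ± 0.19) rose in CD4SP, where Sit1 (-0.66 ± 0.14) and Vav1 (-0.31 ± 0.088) fell. In CD8SP the adaptor Lax1 (1.28 ± 0.12), Wipf1 (0.72 ± 0.11), which stabilises the actin regulator Was, Vav3 (0.65 ± 0.19) and Sh2d2a (0.64 ± 0.17) rose against the majority. Between the single-positive subsets 4 adaptors were higher in CD4SP and 1 lower, with Sh3bp2 at 1.07 ± 0.17 (adjusted p = 0.00217) and Lax1 at -0.78 ± 0.12 (adjusted p = 0.00259). The Vav1 fall in CD4SP was lost without DP 1, DP 3, CD4SP 2 or CD4SP 3 in turn (-0.31 to -0.26, adjusted p between 0.0521 and 0.0807), and the Vav3 rise in CD8SP without DP 1, CD8SP 2 or CD8SP 3 in turn (0.61 to 0.63, adjusted p between 0.0541 and 0.0623). On the Vav3 probe set with the smallest within-group SD the CD8SP difference was -0.085.

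The 17 phosphatases and inhibitors changed in both directions at every step: 8 rose and 4 fell from DN to DP, and 8 rose and 5 fell in each single-positive subset against DP, with medians of 0.30, 0.29 and 0.27. From DN to DP the scavenger-family receptors Cd6 (2.04 ± 0.16) and Cd5 (1.58 ± 0.22), which restrain receptor signals, rose with the adaptor Sla (2.02 ± 0.11). There the ubiquitin ligase Cblb (-0.96 ± 0.13) and the phosphatases Ubash3b (-0.83 ± 0.19), Ptpn2 (-0.53 ± 0.12) and Ptprj (-0.33 ± 0.11) fell. In the single-positive subsets Ubash3b rose, by 2.36 ± 0.19 in CD4SP and 2.25 ± 0.19 in CD8SP. Sla, which promotes loss of the receptor from the surface of DP cells, fell by 1.58 ± 0.11 and 2.26 ± 0.11, and its relative Sla2 fell by 1.12 ± 0.11 and 0.46 ± 0.11.

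The ligase Cbl fell by 1.96 ± 0.090 in CD4SP and 2.28 ± 0.090 in CD8SP, while its paralogue Cblb rose by 1.34 ± 0.13 and 1.22 ± 0.13 in the same subsets. From DN to DP this pair had moved the other way, Cbl by 1.34 ± 0.090 and Cblb by -0.96 ± 0.13. Cd5 read -0.55, 0.35 and 0.20 in DP, 1.87, 2.17 and 2.24 in CD4SP and 0.51, 0.93 and 0.98 in CD8SP. It rose by 2.09 ± 0.22 in CD4SP, and was 1.29 ± 0.22 higher there than in CD8SP (adjusted p = 0.00329). Between the single-positive subsets 5 genes of this list were higher in CD4SP and 2 lower, with Dok2 at 0.75 ± 0.16, Ptpn22 at -0.74 ± 0.13 and Sla2 at -0.67 ± 0.11.

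The smaller changes in this list were less steady. Pag1, which recruits Csk, fell by 0.39 ± 0.11 in CD4SP, a call lost without DP 1, DP 3 or CD4SP 2 in turn (-0.39 to -0.37, adjusted p between 0.0529 and 0.0617), and fell by 0.51 ± 0.11 in CD8SP, where its probe set with the smallest within-group SD gave 0.10. Ptprj fell by 0.32 ± 0.11 in CD4SP and 0.29 ± 0.11 in CD8SP. Its 3 calls, in the order DN to DP, CD4SP and CD8SP, were lost without DN 2, DN 3, DP 2 or DP 3 in turn (-0.34 to -0.27, adjusted p between 0.0678 and 0.115), without DP 1, DP 2, CD4SP 2 or CD4SP 3 in turn (-0.35 to -0.23, adjusted p between 0.0658 and 0.142) and without DN 2, DN 3, DP 1, DP 2, DP 3, CD4SP 2, CD8SP 1, CD8SP 2 or CD8SP 3 in turn (-0.34 to -0.25, adjusted p between 0.0551 and 0.141). The Dok2 difference between the single-positive subsets was lost without CD4SP 3 (0.70, adjusted p = 0.0538).

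**Figure D4:**
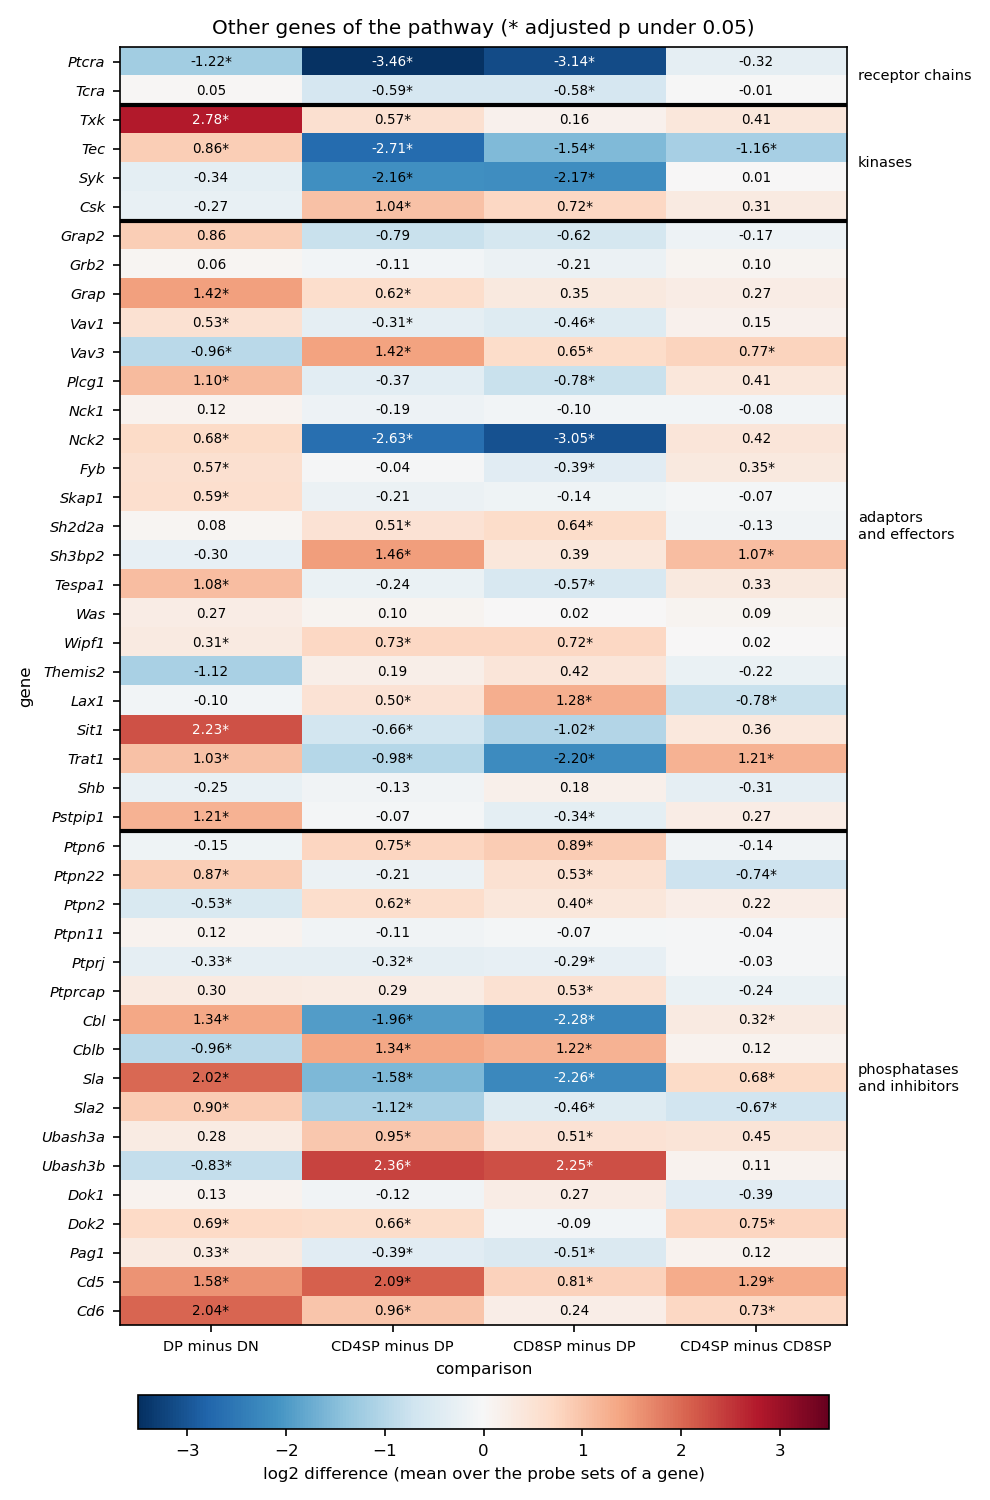
Log2 difference of the 44 other pathway genes (rows, grouped by role, mean over the probe sets of each gene) in 4 comparisons (columns), with colour and number giving the difference and an asterisk marking an adjusted p under 0.05. Ptcra is at -1.22 from DN to DP while 21 of the 44 genes are called higher there, and Cbl and Cblb have opposite signs in each of the first 3 columns.

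Over the 12 arrays the profiles of the 10 genes, each as the mean of its probe sets, fell into several shapes. These correlations describe 12 points that form 4 groups and share each array, so they carry no p. Cd3d and Cd3e were the most alike of the 45 pairs (r = 0.970), whereas their neighbour Cd3g correlated with them by 0.610 and 0.529. Cd247 was close to Lcp2 (0.931), and Ptprc to Cd3e (0.940) and Zap70 (0.934). Themis and Fyn were the least alike, at -0.540.

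Outside the 10 genes, the most similar profiles were sought among 3323 genes with an SD of at least 0.5 over the arrays. For Fyn they were Cd2, a T cell adhesion receptor (r = 0.996), Rapgef6 (0.995) and the costimulatory receptor Icos (0.993), and for Themis Hdac7 (0.991), Chrna9 (0.991) and Hs6st1 (0.991). Hdac7 encodes a histone deacetylase. Zap70 was closest to Trav6-3 (0.991), Nlk (0.985) and Gramd1a (0.981), and Ptprc to Trav12n-2 (0.995), Mfhas1 (0.987) and Itpkb (0.985), where the Trav genes are variable segments of the α chain.

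Cd247 was closest to Gimap9 (0.984), Lzts1 (0.975) and Il6st (0.958), Lat to Rbl2 (0.984), Pip4k2a (0.981) and Znrf1 (0.978), and Lcp2 to Arap2 (0.990), Zbtb20 (0.982) and Cpeb4 (0.975). Cd3d was closest to Il4ra (0.987), Rnf167 (0.981) and Tcp11l2 (0.981), and Cd3e to Cd84 (0.981), Stambpl1 (0.974) and Ccm2 (0.974). Cd3g, whose values varied least between the subsets, had the lowest best match, Slamf9 (0.924), followed by Tk2 (0.908) and the early response gene Fos (0.907).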

How the data were processed

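Total RNA of 12 samples (4 sorted thymocyte subsets, 3 each) had been hybridised to Affymetrix mouse expression arrays, per the labels. The authors deposited 1 log value per probe set and array, taken as log2 because no source used here states the base. The DP mean was subtracted, as the values show (largest absolute DP mean 1.27e-06). The submitters' processing notes name MAS5, with no version or role. Absolute signal was lost, so no filter on dim probe sets was possible.

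Of 45101 probe sets, 64 controls, 932 with several symbols and 9160 with none were left out. limma 3.58.1 (R 4.3.3) was fitted to the remaining 34945, and to 18193 gene means, with 4 group means over all arrays, lmFit, contrasts.fit and eBayes. P-values are two-sided, Benjamini-Hochberg adjusted. The members and lists were chosen with earlier results of these data known. Named were all member probe sets, the sort genes, per pathway list the 3 called genes with the largest difference and those against its direction, the leading markers, and the 3 most correlated genes. Cblb in the single-positive subsets, Cbl from DN to DP, and the early response genes were chosen after their values were known. The fit was tested on simulated data. Alternatives were other samples, weights, centring, blocks, filters and probe set choices.

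Same-numbered arrays were checked for pairing. Their residuals correlated by 0.095 to 0.14 (number 1), -0.018 to 0.092 (number 2) and 0.039 to 0.13 (number 3), against -0.15 to 0.083 between different numbers. All pairs numbered 1 lay above all pairs of different numbers, and 10 of 12 arrays correlated best with their own number. The main fit did not include the numbers, and its uncalled results may depend on this. With the number as a block, 10 calls among the 21 probe sets were gained and 0 lost. Precision is limited by having 3 arrays per group.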

Additional observations from a re-analysis of the deposited data

Results flagged for a closer look

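Beside Cd247, Lat, Lcp2 and Themis, several pathway genes changed differently from DP in CD4SP and CD8SP, by the test of CD4SP minus CD8SP in the limma fit. The values were 0.52 (1426079_at), 0.71 (1426396_at) and 0.89 (1452539_a_at) for Cd247, 0.42 for Lat, 0.52 (1418641_at) and 0.54 (1418642_at) for Lcp2 and -0.35 for Themis 1436423_at. Among the other pathway genes they were -1.16 for Tec, 1.21 for Trat1, 1.07 for Sh3bp2, -0.78 for Lax1, 1.29 for Cd5, 0.75 for Dok2, -0.74 for Ptpn22 and -0.67 for Sla2. The 3 Cd247 probe sets and Lcp2 1418641_at were called against DP in CD8SP and had no call in CD4SP, Trat1 and Lat fell in both subsets and further in CD8SP, and Tec fell in both and further in CD4SP.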

How the results depend on the processing

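Over the 21 probe sets and 6 comparisons, 79 results were called, and 64 of these kept their direction and call in every alternative run. Of the 47 results that were not called, 17 kept their direction and stayed uncalled in every alternative run. The other 30 turned in sign or were called in some run. With 1 mean per gene (10 genes) the counts were 9 higher in DP minus DN, 2 lower in CD4SP minus DP, 4 lower in CD8SP minus DP, 3 higher and 0 lower in CD4SP minus CD8SP, 8 higher and 1 lower in CD4SP minus DN, and 6 higher and 0 lower in CD8SP minus DN, fewer by construction. In CD4SP minus DP and in CD8SP minus DP the genes called higher by this mean were Zap70 and Fyn. With the replicate number as a block 10 calls among the 21 probe sets were gained and 0 lost, and 5 probe sets rose in CD4SP minus DP, as they did with the arrays numbered 1 as a factor. The block called Cd247 1420716_at in DP minus DN (adjusted p = 0.00123), CD4SP minus DP (adjusted p = 0.0174), CD8SP minus DP (adjusted p = 0.0175) and CD4SP minus CD8SP (adjusted p = 0.00214), Fyn 1448765_at in DP minus DN (adjusted p = 0.0223) and CD4SP minus CD8SP (adjusted p = 0.0159) and Cd3g in CD4SP minus DP (adjusted p = 0.0229), CD8SP minus DP (adjusted p = 0.0241), CD4SP minus DN (adjusted p = 0.00753) and CD8SP minus DN (adjusted p = 0.0103). With the arrays numbered 1 as a factor the same calls were gained, Fyn 1417558_at was called in CD4SP minus CD8SP (adjusted p = 0.0326), and Zap70 1439749_at in DP minus DN and Ptprj in CD8SP minus DP were lost (adjusted p = 0.0502 and 0.0536). All but 2 arrays (10 of 12) correlated best with their own number. Fitting only the 2 groups gave 3 higher and 0 lower in CD4SP minus CD8SP and 0 lower in CD8SP minus DN, and array weights or leaving out DN 1 and CD8SP 1 also gave 0 lower there. Without these 2 arrays 5 rose in CD8SP minus DP. Leaving out 1 array at a time gave 2 to 6 higher and 0 to 1 lower in CD4SP minus CD8SP, 0 to 2 lower in CD8SP minus DN, and 4 to 9 pathway genes higher in CD4SP minus CD8SP. Calls over all probe sets in CD4SP minus CD8SP were 4493, 2469 with only these groups, 2904 without CD4SP 2 and 2593 without CD4SP 3. The cause was not tested.

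Differences whose sign turned had not been called, except those of Vav3 and Pag1. Without DN 1 and CD8SP 1 the sign turned for Cd3g 1419178_at -0.093 in DP minus DN, Cd3d 1422828_at 0.062 and Ptprc 1440165_at -0.074 in CD8SP minus DP, Cd3d 1422828_at -0.043 and Cd3g 1419178_at -0.094 in CD4SP minus CD8SP. With array weights the sign turned for Cd3e 1422105_at -0.046 and Cd247 1426396_at -0.010 in CD4SP minus DP, Cd3d 1422828_at 0.014 and Ptprc 1440165_at -0.11 in CD8SP minus DP, Cd3d 1422828_at -0.012 and Cd3g 1419178_at -0.040 in CD4SP minus CD8SP. After centring on the median the sign turned for Cd3e 1422105_at -0.0091 and Cd247 1426396_at -0.0011 in CD4SP minus DP, Cd3d 1422828_at 0.00070 in CD8SP minus DP, Cd3g 1419178_at -0.033 and Zap70 1439749_at -0.0027 in CD4SP minus CD8SP. On the probe set with the smallest within-group SD the sign turned for Vav3 -0.085 and Pag1 0.10 in CD8SP minus DP. Leaving out 1 array at a time also turned signs, with ranges given here. In CD8SP minus DN these were Cd247 1420716_at -0.043 to 0.71. In CD4SP minus DP these were Cd247 1426396_at -0.023 to 0.053, Cd3d 1422828_at -0.030 to 0.068, Cd3e 1422105_at -0.080 to 0.085 and Lcp2 1418641_at -0.051 to 0.18. In CD4SP minus CD8SP these were Cd3d 1422828_at -0.043 to 0.11, Cd3g 1419178_at -0.094 to 0.088, Zap70 1422701_at -0.16 to 0.012, Zap70 1439749_at -0.055 to 0.10 and Zap70 1440178_x_at -0.13 to 0.038. In CD8SP minus DP these were Cd3d 1422828_at -0.089 to 0.062 and Ptprc 1440165_at -0.074 to 0.14. In DP minus DN these were Cd3g 1419178_at -0.093 to 0.15.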

Other observations

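The array numbered 1 was the lowest of its group in all 4 subsets for 3 of the 21 probe sets, Cd3g 1419178_at, Cd247 1420716_at and Fyn 1417558_at. Over all probe sets this held for 2804 of 34945 (8.02%) with number 1, 1.26% with number 2 and 1.07% with number 3. For Cd247 1420716_at the readings were -1.67, -0.26 and -0.67 in DN, -0.78, 0.30 and 0.48 in DP, -0.28, 0.79 and 1.08 in CD4SP and -1.22, -0.33 and 0.021 in CD8SP. With the arrays numbered 1 as a factor its DP minus DN adjusted p was 0.000687, against 0.202 without that factor.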
